A study of Mus musculus with 9 samples.

Results

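The 36 genes described here encode enzymes and regulators of cholesterol and fatty acid synthesis. They were taken by gene symbol from a table of 40879 symbols counted in mouse whole spinal cord, and all 36 had enough counts to be among the 15351 genes tested. They comprise 18 enzymes of sterol synthesis, 12 enzymes of fatty acid synthesis and 6 regulators of these pathways. The sterol enzymes were divided into 8 early steps, which lead to squalene, and 10 late steps, which lead on to cholesterol. The fatty acid enzymes were divided into 5 of supply and chain building and 7 of desaturation and elongation.

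All mice were wild type (WT). In the first group, EAE (experimental autoimmune encephalomyelitis, in which immune cells directed at myelin inflame the cord, used to model multiple sclerosis) had been induced and the mice received GV1001, a peptide derived from telomerase. The second group had EAE and received vehicle, and the third was naive, without disease. Each group had 3 libraries, made by sequencing the 3′ ends of transcripts, with total counts of 5247246 to 6174870. Strain, age, dose and day of sampling are not given in the sources used here. Nor is it given there whether replicates came from separate animals, so p-values measure only the spread between these samples, which may be technical.

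Cholesterol is a main lipid of the myelin sheath, and the brain and spinal cord make nearly all of their own. The early steps build squalene from acetyl-CoA, and the late steps close its rings and trim them to cholesterol. SREBP transcription factors, made from Srebf1 and Srebf2, switch on both pathways when membrane sterol is low. SCAP escorts them out of the endoplasmic reticulum for cleavage, and the INSIG proteins hold SCAP back when sterol is plentiful. SREBP2 acts mainly on sterol genes and SREBP1 mainly on fatty acid genes.

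SREBPs act on promoters together with the factors NF-Y, which binds CCAAT boxes, and Sp1. RefSeq promoter sequences of build GRCm38.p6 were matched for 29 of the 36 members by symbol, covering 250 bases before to 50 bases after the start. The coordinates are those of this build, while the deposited counts were made on GRCm39. A CCAAT box, searched as CCAAT on both strands, was present in 24 of the 29 members (82.8%), against 41.1% of 27025 genes in the same table. All 9 late sterol genes with a promoter entry had one, as did 5 of 6 early sterol genes, 4 of 5 regulators, 4 of 5 genes of fatty acid supply and 2 of 4 of desaturation and elongation. The Sp1 box GGGCGG was also present in 24 of 29 members (82.8%), against 38.2% of genes, and the E-box CACGTG in 6 of 29 (20.7%), against 8.09%. These shares compare unlike sets, as the 27025 genes were not limited to those tested here, whereas all members were tested. The 29 members had 39 promoter entries, and the 27025 genes had 32851. The sterol regulatory element form TCACNCCAC, which does not take in variants of the element, was present in 1 of 29 members, against 1.44% of genes. That member was Hmgcs1, with a match 137 to 129 bases before its start that overlapped no CCAAT box. The 250 bases before the start are shown for Hmgcs1 and Lss, an early and a late sterol enzyme, for the regulator Insig1, and for the fatty acid desaturase Fads2, in which no CCAAT box was found. Capitals mark CCAAT, or ATTGG where it lies on the other strand, and the sterol regulatory element match in Hmgcs1. A match is a match of letters only, and binding was not measured.
Hmgcs1, chr13:119690101-119690350, plus strand: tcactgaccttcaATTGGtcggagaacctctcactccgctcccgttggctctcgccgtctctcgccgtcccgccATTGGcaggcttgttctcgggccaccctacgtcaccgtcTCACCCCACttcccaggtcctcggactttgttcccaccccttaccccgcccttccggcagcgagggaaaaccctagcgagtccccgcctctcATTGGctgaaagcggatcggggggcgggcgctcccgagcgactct
Lss, chr10:76531355-76531604, plus strand: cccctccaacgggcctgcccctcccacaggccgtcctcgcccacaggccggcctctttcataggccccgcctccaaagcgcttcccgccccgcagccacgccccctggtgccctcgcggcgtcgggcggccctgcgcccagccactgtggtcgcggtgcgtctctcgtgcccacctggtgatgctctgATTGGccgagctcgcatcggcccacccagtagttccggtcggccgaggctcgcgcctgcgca
Insig1, chr5:28071162-28071411, plus strand: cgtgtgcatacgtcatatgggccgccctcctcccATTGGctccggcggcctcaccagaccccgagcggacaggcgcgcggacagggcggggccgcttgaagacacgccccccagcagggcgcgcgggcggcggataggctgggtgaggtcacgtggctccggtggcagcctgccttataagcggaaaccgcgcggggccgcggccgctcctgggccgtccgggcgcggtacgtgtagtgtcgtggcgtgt
Fads2, chr19:10101504-10101753, minus strand: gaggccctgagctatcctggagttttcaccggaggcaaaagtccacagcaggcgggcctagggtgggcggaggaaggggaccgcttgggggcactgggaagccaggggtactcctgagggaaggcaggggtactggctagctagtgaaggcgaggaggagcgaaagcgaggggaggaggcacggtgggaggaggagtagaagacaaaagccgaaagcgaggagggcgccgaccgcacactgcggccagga

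Levels are given below in CPM, counts scaled to the library total after TMM normalisation, always for replicates 1, 2 and 3 in that order. Since only transcript ends were counted, CPM is not divided by length and levels are not compared between genes. Log2 fold changes carry the standard error (SE) from edgeR's quasi-likelihood test, and adjusted p-values are over all 15351 genes. In bulk tissue, fewer cells of a type and less RNA per cell cannot be told apart.

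**Figure D1:**
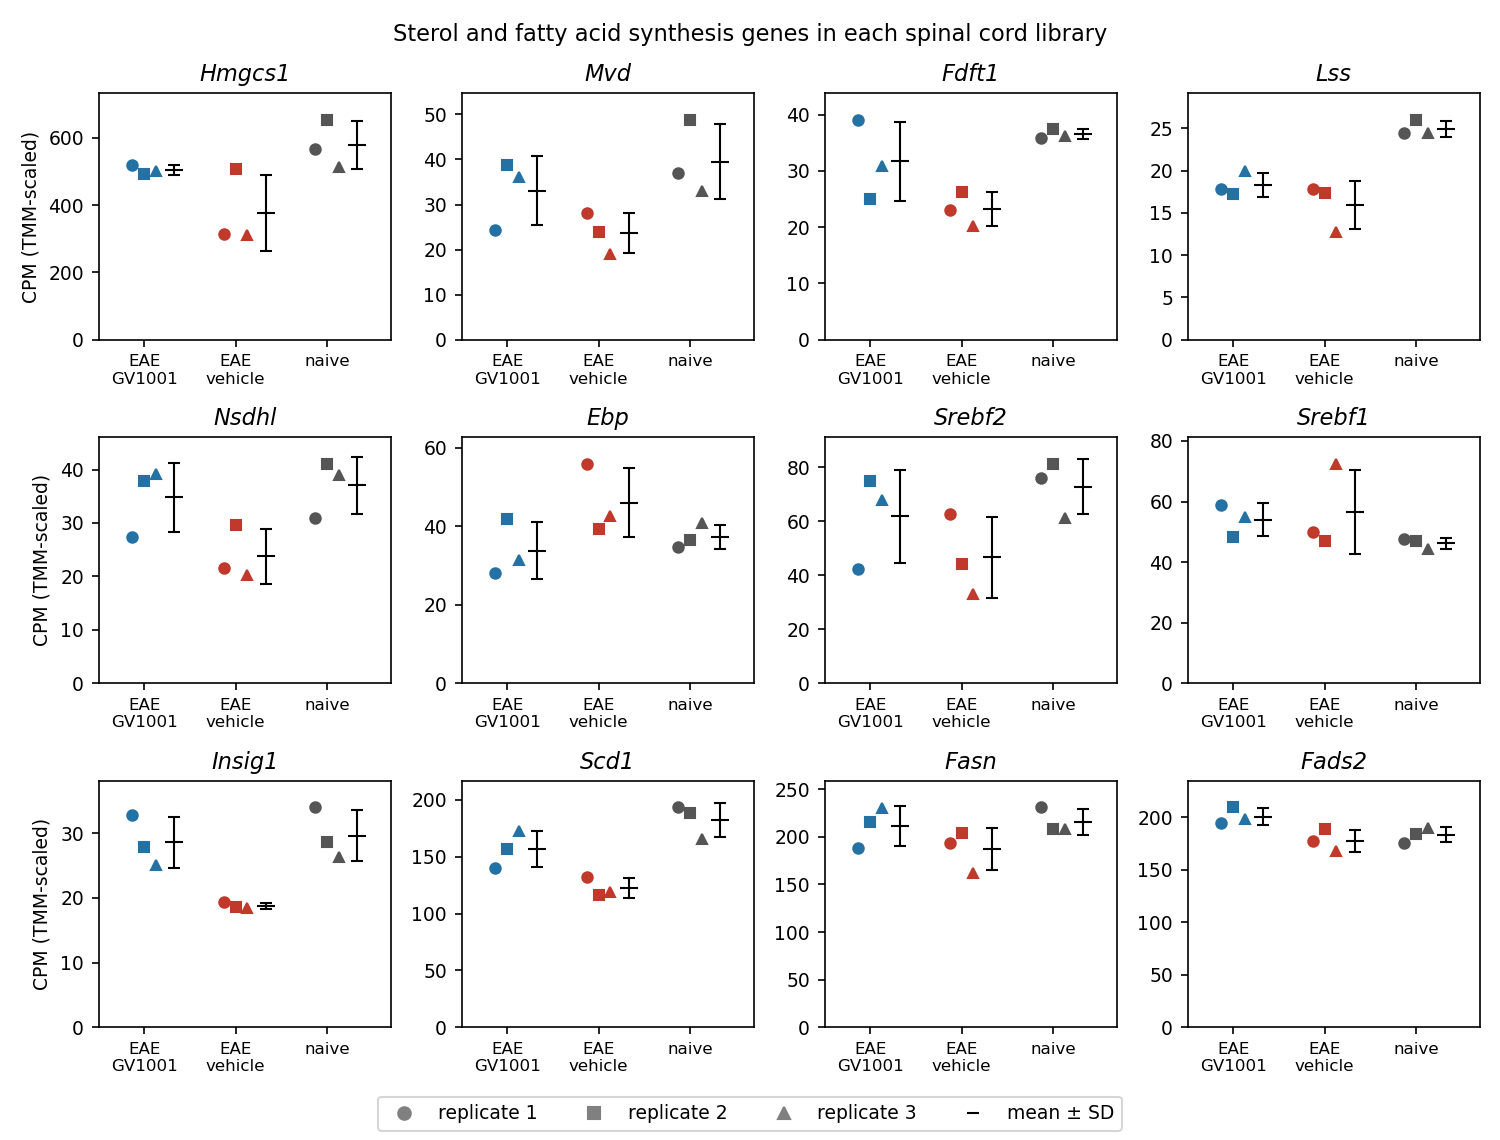
CPM of 12 members in each library (1 symbol per replicate, bars for mean ± SD, n = 3), with GV1001, vehicle and naive groups from left to right in each panel. Insig1 values of the vehicle group (18.5 to 19.3 CPM) all lie below those of the GV1001 group (25.1 to 32.9 CPM) and the naive group (26.3 to 34.0 CPM).

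Vehicle-treated EAE cords were compared with naive cords to ask which transcripts differ in the diseased cord. Sterol synthesis transcripts were mostly at lower levels in vehicle libraries, and fatty acid genes were less uniform. The log2 fold change was negative for 17 of 18 sterol enzymes, with a median of −0.51, and for 8 of 12 fatty acid enzymes, with a median of −0.18. Over all tested genes the median was 0.00, and 50.5% were negative. None of the 36 members passed an adjusted p of 0.05 in edgeR, where 0.0195% of all genes did. The smallest adjusted p among members was 0.0674, for Scd1. At an unadjusted p of 0.05, 17 of the 36 members were lower (47.2%), against 8.07% of all genes, and 0 were higher, against 11.3%. In 15 members (41.7%) every vehicle library lay below every naive library, against 11.7% of all genes. Acaca was the 1 member in which every vehicle library lay above every naive library, against 12% of all genes.

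The count of members called differed between settings. DESeq2 called 6 members lower, namely Hmgcs1, Mvd, Fdft1, Lss, Insig1 and Scd1, against 1.46% of the genes it tested, and limma-voom called 0 members and 0 genes. Without vehicle replicate 2, edgeR called 12 members lower, with adjusted p from 0.00525 to 0.0478, against 2.96% of the genes tested without it. Then 23 members were lower without overlap, but leaving out a library cannot lower such a count for any genes. The matching share of all genes was not computed. Scd1 alone passed with no filter on low counts (adjusted p = 0.0238), against 0.354% of genes called lower, and without GV1001 replicate 1 (adjusted p = 0.0475), against 0.183%. Vehicle replicate 2 also stood apart in hemoglobin and related red blood cell markers, at 4789 CPM against 262 to 705 CPM in the other 8 libraries, and it had the highest vehicle value in 25 of the 36 members. Its summed microglia and macrophage markers were the lowest of the vehicle group, at 1016 CPM against 7065 and 2619 CPM in replicates 1 and 3. Its summed neuron markers (7455 CPM against 5386 and 6012 CPM) and myelin markers (17645 CPM against 13862 and 16101.5 CPM) were the highest. The part of these differences in the calls was not tested.

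**Figure D2:**
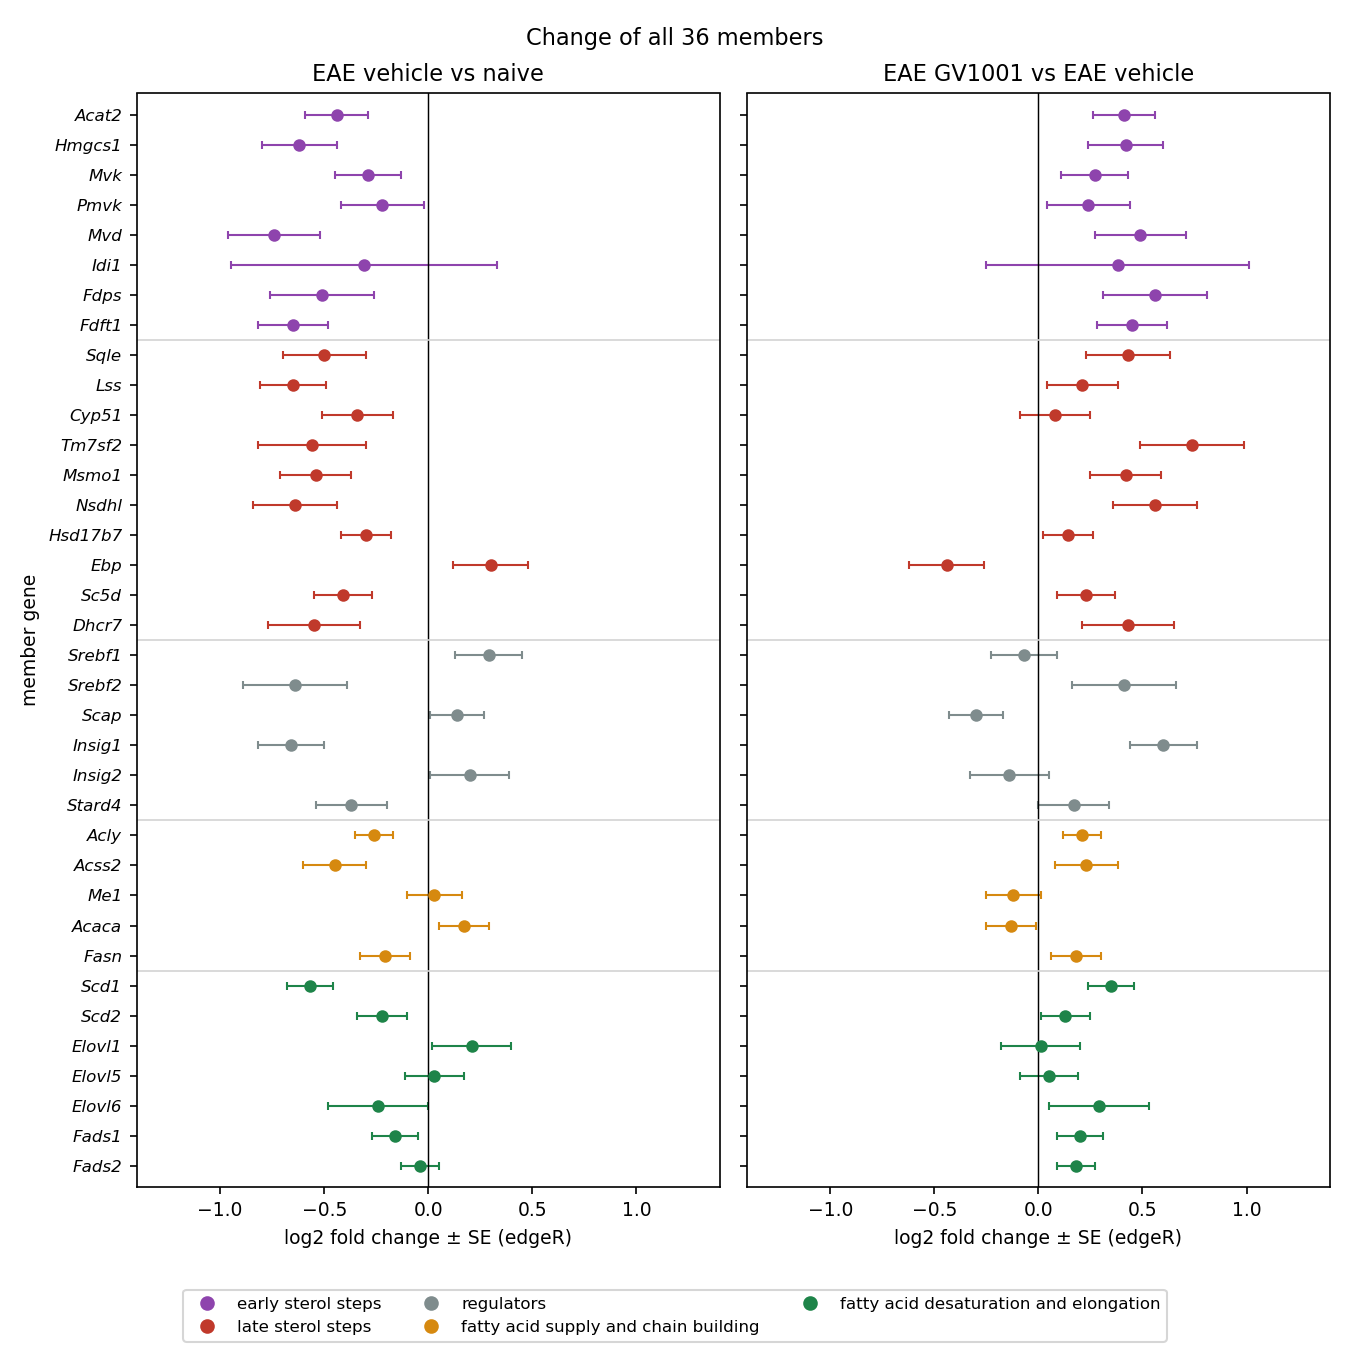
Log2 fold change of each of the 36 members, with SE as bars, by arm and comparison. For vehicle against naive, 17 of 18 sterol enzymes lie below 0, and for GV1001 against vehicle, 17 of 18 lie above it.

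Among the early sterol enzymes, all 8 had negative log2 fold changes in vehicle against naive libraries, from −0.74 to −0.22 with a median of −0.47. Hmgcs1, which makes HMG-CoA, had 313, 506 and 311 CPM in vehicle libraries, against 567, 653 and 513 CPM in naive libraries. Its groups did not overlap, though vehicle replicate 2 lay close to the lowest naive library. The log2 fold change was −0.62 ± 0.18 (SE), with an adjusted p of 0.0967 in edgeR and 0.0177 in DESeq2. Acat2, the thiolase that joins acetyl-CoA units, had 55.7, 77.0 and 51.3 CPM in vehicle libraries, against 79.1, 87.1 and 82.3 CPM in naive libraries. Every vehicle library lay below every naive library, and replicate 2 again came nearest to them (log2 fold change −0.44 ± 0.15, adjusted p = 0.15). Mvd, which decarboxylates mevalonate diphosphate to isopentenyl diphosphate, had 28.1, 23.9 and 19.1 CPM in vehicle libraries, against 36.9, 48.8 and 32.9 CPM in naive libraries. Its groups did not overlap. The log2 fold change of −0.74 ± 0.22 was the lowest of the 36 members, with an adjusted p of 0.102 in edgeR and 0.0428 in DESeq2. Fdft1, squalene synthase, had 23.1, 26.3 and 20.3 CPM in vehicle libraries, against 35.9, 37.5 and 36.3 CPM in naive libraries. The naive values were close together and all vehicle values lay well below them (−0.65 ± 0.17, adjusted p = 0.0836 in edgeR and 0.0324 in DESeq2). Fdft1 overlaps Ctsb on the other strand in the GENCODE M21 annotation, and the strand setting of the counting is not given in the sources used here.

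The other 4 early enzymes overlapped between vehicle and naive libraries. Their log2 fold changes were −0.29 ± 0.16 for the kinase Mvk, −0.22 ± 0.20 for the kinase Pmvk, −0.51 ± 0.25 for the farnesyl diphosphate synthase Fdps and −0.31 ± 0.64 for the isomerase Idi1, with adjusted p from 0.293 to 0.84. Idi1 had only 3 to 13 counts in a library, and its SE was the largest of the 36 members. Fdps overlaps Gm43738 on the same strand in the annotation.

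Among the late sterol enzymes, 9 of 10 had negative log2 fold changes, with a median of −0.52. Lss, which closes squalene epoxide into lanosterol, had 17.8, 17.3 and 12.7 CPM in vehicle libraries, against 24.4, 26.0 and 24.4 CPM in naive libraries. The groups did not overlap (−0.65 ± 0.16, adjusted p = 0.0777 in edgeR and 0.0432 in DESeq2). Msmo1, a methylsterol oxidase, had 141, 198 and 114 CPM in vehicle libraries, against 223, 222 and 211 CPM in naive libraries. All vehicle values were below the naive ones, with replicate 2 the highest of them (−0.54 ± 0.17, adjusted p = 0.117). Nsdhl, a sterol dehydrogenase, had 21.5, 29.7 and 20.2 CPM in vehicle libraries, against 31.0, 41.1 and 39.0 CPM in naive libraries. Here too the groups were apart, by little between vehicle replicate 2 and naive replicate 1 (−0.64 ± 0.20, adjusted p = 0.11). Tm7sf2, a sterol reductase, had 4.44, 7.14 and 4.74 CPM in vehicle libraries, against 7.06, 8.02 and 8.88 CPM in naive libraries. Vehicle replicate 2 lay just above naive replicate 1, so the groups overlapped (−0.56 ± 0.26, adjusted p = 0.27). Tm7sf2 overlaps Vps51 on the same strand.

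Ebp, a sterol isomerase, went against the other sterol enzymes. It had 55.9, 39.3 and 42.7 CPM in vehicle libraries, against 34.6, 36.6 and 40.7 CPM in naive libraries. Vehicle replicates 1 and 3 stood above all naive libraries and replicate 2 lay among them (0.30 ± 0.18, adjusted p = 0.398). The other 5 late enzymes had log2 fold changes from −0.55 to −0.30. Hsd17b7, a ketosteroid reductase, and Sc5d, a sterol desaturase, did not overlap between the groups, at −0.30 ± 0.12 and −0.41 ± 0.14. The squalene epoxidase Sqle (−0.50 ± 0.20), the lanosterol demethylase Cyp51 (−0.34 ± 0.17) and the final reductase Dhcr7 (−0.55 ± 0.22) overlapped. Early and late steps therefore had medians of −0.47 and −0.52, a gap smaller than the SE of any single sterol enzyme.

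The regulators were divided. Srebf2, which encodes SREBP2, had 62.9, 44.1 and 33.2 CPM in vehicle libraries, against 76.0, 81.4 and 61.4 CPM in naive libraries. Vehicle replicate 1 lay just above naive replicate 3 (−0.64 ± 0.25, adjusted p = 0.181). Srebf1, which encodes SREBP1, had 49.99, 47.0 and 72.5 CPM in vehicle libraries, against 47.6, 46.9 and 44.2 CPM in naive libraries. Its log2 fold change of 0.29 ± 0.16 (adjusted p = 0.372) rested mostly on vehicle replicate 3. Without that library it was 0.07. Srebf1 overlaps Rai1 on the other strand. Insig1, itself a known target of SREBPs, had 19.3, 18.6 and 18.5 CPM in vehicle libraries, against 34.0, 28.6 and 26.3 CPM in naive libraries. Vehicle values were almost equal to each other and all below the naive ones (−0.66 ± 0.16, adjusted p = 0.0728 in edgeR and 0.0248 in DESeq2).

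The second INSIG gene did not follow the first. Insig2 had 32.6, 44.7 and 39.6 CPM in vehicle libraries, against 35.9, 35.9 and 29.8 CPM in naive libraries, with overlap (0.20 ± 0.19, adjusted p = 0.604). Scap had 61.3, 81.0 and 74.2 CPM in vehicle libraries, against 57.9, 71.1 and 67.2 CPM in naive libraries. These overlapped too (0.14 ± 0.13, adjusted p = 0.6). Stard4, which carries sterol between membranes, had 40.7, 58.0 and 36.8 CPM in vehicle libraries, against 59.0, 55.9 and 59.6 CPM in naive libraries. Vehicle replicates 1 and 3 were low while replicate 2 lay among the naive values (−0.37 ± 0.17, adjusted p = 0.255).

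Of the 5 enzymes of fatty acid supply and chain building, 3 were lower in vehicle libraries without overlap, 1 was higher without overlap and 1 overlapped, with a median log2 fold change of −0.21. Acly, which makes acetyl-CoA from citrate, had 160, 178 and 164 CPM in vehicle libraries, against 193, 220 and 187 CPM in naive libraries. The groups did not overlap, and the difference was small (−0.26 ± 0.09, adjusted p = 0.168). Acss2, which makes acetyl-CoA from acetate, had 25.5, 37.0 and 32.2 CPM in vehicle libraries, against 45.3, 42.5 and 42.0 CPM in naive libraries. Again every vehicle library was below every naive library (−0.45 ± 0.15, adjusted p = 0.127). Acss2 overlaps Gss on the other strand. Fasn, fatty acid synthase, had 194, 204.5 and 162 CPM in vehicle libraries, against 231, 208 and 208 CPM in naive libraries. The groups were apart by a small margin (−0.21 ± 0.12, adjusted p = 0.366). Acaca, which makes malonyl-CoA, was at 44.2 to 47.9 CPM in vehicle libraries and 39.6 to 42.0 CPM in naive libraries (0.17 ± 0.12, adjusted p = 0.479). Me1, which supplies NADPH, was at 0.03 ± 0.13.

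Of the desaturases and elongases, Scd1 stood apart. Scd1 introduces the double bond of oleate, and it had 132, 116 and 119 CPM in vehicle libraries, against 193, 188 and 166 CPM in naive libraries. All vehicle libraries lay below all naive libraries, with a fold of 0.671 (−0.57 ± 0.11). The adjusted p was 0.0674 in edgeR, 0.000644 in DESeq2 and 0.0238 in edgeR with no filter on low counts. Its paralog Scd2 had 922, 1198 and 1169 CPM in vehicle libraries, against 1269, 1299 and 1255 CPM in naive libraries. Those groups did not overlap either, but the difference was smaller and vehicle replicate 1 was the lowest (−0.22 ± 0.12, adjusted p = 0.366). Reads that fit both paralogs may be left out of the counts or assigned to either, and the difference between the paralogs was not tested.

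The remaining enzymes of this arm overlapped between vehicle and naive libraries. Fads1, a desaturase of polyunsaturated fatty acids, had 126, 170 and 149 CPM in vehicle libraries, against 175, 156 and 166 CPM in naive libraries (−0.16 ± 0.11, adjusted p = 0.494). Vehicle replicate 1 was low and replicate 2 was within the naive range. Fads2, its partner desaturase, had 177, 188 and 167 CPM in vehicle libraries, against 176, 184 and 190 CPM in naive libraries, with close to equal levels (−0.04 ± 0.09, adjusted p = 0.831). Elovl1, which elongates saturated very long chains, had 60.7, 46.6 and 46.9 CPM in vehicle libraries, against 38.9, 46.9 and 47.2 CPM in naive libraries. Only vehicle replicate 1 was above the naive range (0.21 ± 0.19, adjusted p = 0.585), and Elovl1 overlaps Cdc20 on the other strand. Elovl5 and Elovl6, elongases of polyunsaturated and of saturated chains, were at 0.03 ± 0.14 and −0.24 ± 0.24.

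**Figure D3:**
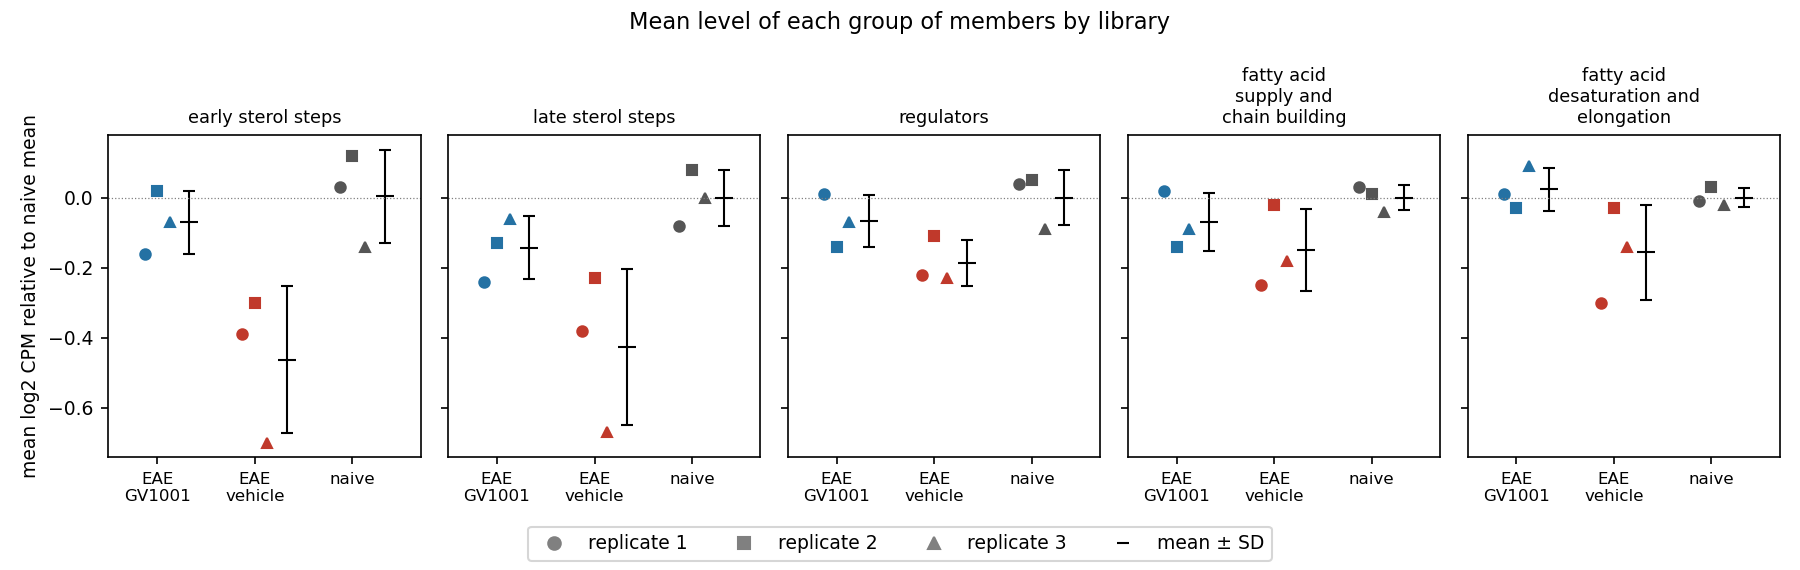
Score of each arm in each library, averaged log2 CPM over its members with the naive average set to 0, for GV1001, vehicle and naive groups from left to right (bars: mean ± SD, n = 3). Vehicle libraries lie at −0.70 to −0.30 for early and −0.67 to −0.23 for late sterol steps, below the naive libraries, while for fatty acid supply vehicle replicate 2 lies at −0.02, among the naive libraries.

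The arms were also set side by side in each library by a score, averaged log2 CPM over its members with the naive average set to 0. For early sterol steps the score was −0.39, −0.30 and −0.70 in vehicle libraries, against 0.03, 0.12 and −0.14 in naive libraries. For late sterol steps it was −0.38, −0.23 and −0.67 in vehicle libraries, against −0.08, 0.08 and 0.00 in naive libraries. Both sterol arms were thus lowest in vehicle replicate 3 and below every naive library in each vehicle library. The fatty acid arm scored −0.28, −0.02 and −0.16 in vehicle libraries, against 0.01, 0.02 and −0.03 in naive libraries. Its order within the group differed, with vehicle replicate 1 the lowest and replicate 2 among the naive libraries.

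Transcripts of some cell types moved with these groups while those of others overlapped, and their part in the differences was not tested. Of 15 markers of myelin and oligodendrocytes, 14 had negative log2 fold changes in vehicle against naive libraries. Their summed level was 13862 to 17645 CPM in vehicle libraries and 18541 to 20398 CPM in naive libraries. The myelin score was −0.45, −0.19 and −0.27 in vehicle libraries, against −0.06, 0.07 and −0.01 in naive libraries. The score of all sterol steps minus the myelin score was 0.06, −0.07 and −0.41 in vehicle libraries, against 0.03, 0.03 and −0.05 in naive libraries. Relative to myelin transcripts, then, the sterol enzymes were far below the naive libraries in vehicle replicate 3, just below them in replicate 2 and above them in replicate 1. All 9 neuron markers were negative as well, with summed levels of 5386 to 7455 CPM in vehicle libraries and 7663 to 8057 CPM in naive libraries. All 11 markers of microglia and macrophages were positive, at 1016 to 7065 CPM in vehicle libraries and 400 to 487 CPM in naive libraries. Infiltrating leukocyte markers summed to 194 to 880 CPM in vehicle libraries and 32.2 to 114 CPM in naive libraries, with the B cell marker Cd79a at 0 in every library. Astrocyte scores overlapped, at 0.00, 0.15 and 0.28 in vehicle libraries and 0.05, −0.08 and 0.04 in naive libraries. Oligodendrocyte precursor scores (0.23, −0.20 and −0.01 against 0.02, −0.03 and 0.01) and endothelial scores (0.11, −0.06 and 0.09 against 0.02, −0.03 and 0.01) overlapped too.

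**Figure D4:**
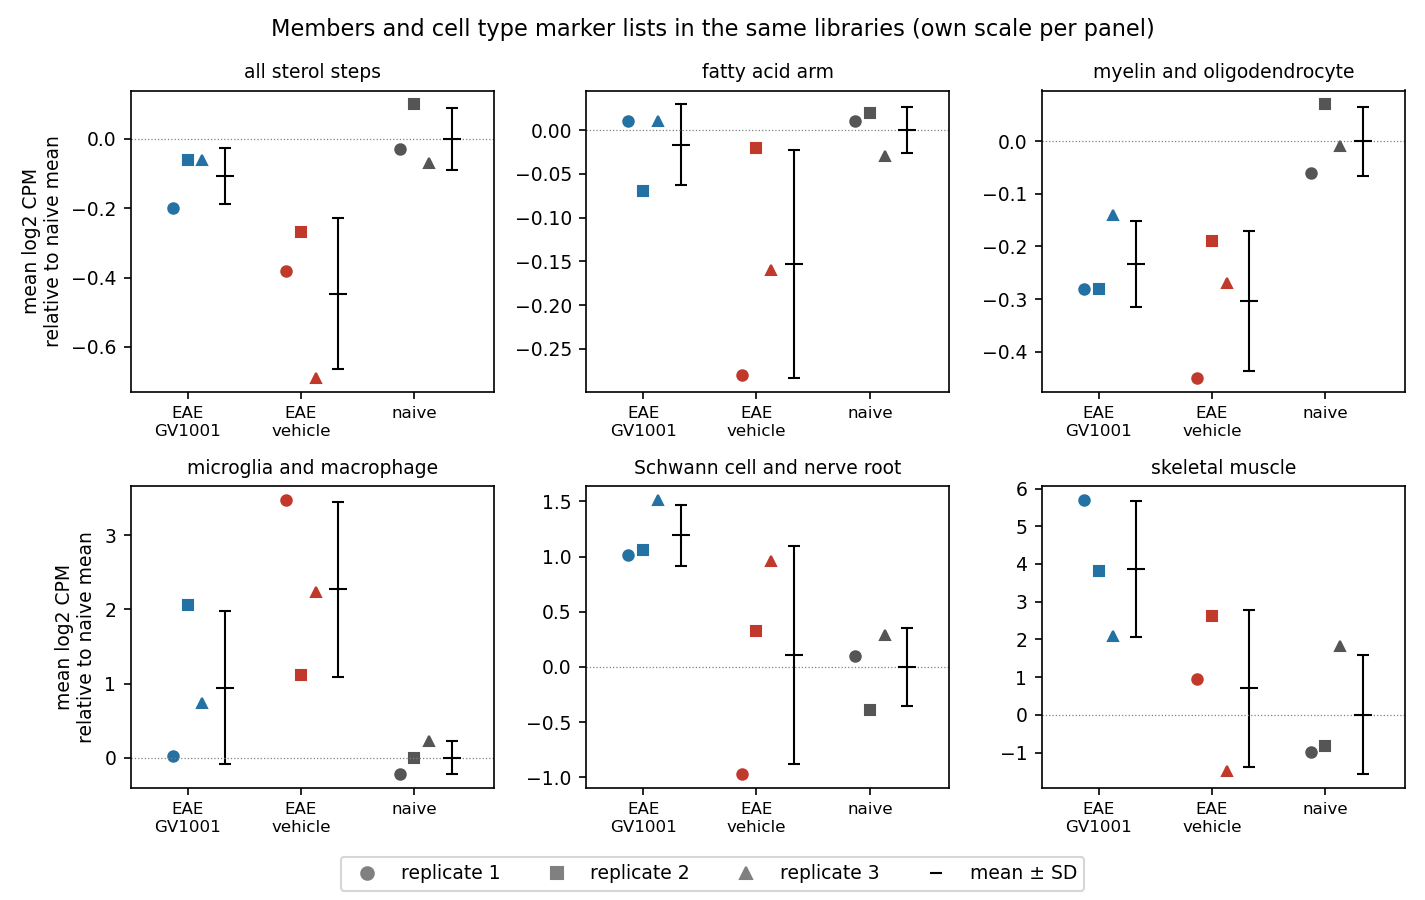
Scores (y axis, log2 CPM with the naive average at 0) of the sterol and fatty acid arms and of 4 marker lists in each library, with mean ± SD as bars and a separate scale in each panel, for GV1001, vehicle and naive groups from left to right. Vehicle replicate 3 has the lowest sterol score (−0.69) at a myelin score of −0.27, while vehicle replicate 1 has the lowest myelin score (−0.45) at a sterol score of −0.38.

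GV1001-treated EAE cords were compared with vehicle-treated EAE cords to ask what the peptide did in diseased mice. Sterol transcripts were mostly at higher levels in GV1001 libraries, but no member passed the test. The log2 fold change was positive for 17 of 18 sterol enzymes, with medians of 0.41 for early and 0.32 for late steps, and for 10 of 12 fatty acid enzymes, with a median of 0.18. The median of all genes was −0.01, and 48.6% were positive. In edgeR 0 members and 0 genes (0%) passed an adjusted p of 0.05, and the smallest adjusted p was 0.528. At an unadjusted p of 0.05, 9 members were higher, against 4.57% of all genes, and 2 were lower, against 4.51%. In 6 members every GV1001 library lay above every vehicle library (16.7%), against 5.95% of all genes. That count was 19 when vehicle replicate 2 was left out, 14 when GV1001 replicate 1 was, and 11 when GV1001 replicate 2 was. Leaving out a library cannot lower it for any set of genes. The share of all genes was not computed for these smaller sets, so the rise is not a result about the members. In 0 members did every GV1001 library lie below, against 4.57%. DESeq2 called 0 members, with 0.0486% of all genes higher and 0.0162% lower, and limma-voom called 0 genes.

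Because the vehicle libraries are shared by this comparison and by that with naive libraries, a low vehicle value lowers 1 log2 fold change and raises the other. The values of the 2 comparisons are therefore not independent. Without vehicle replicate 2, the log2 fold change in GV1001 against vehicle was 0.68 for Hmgcs1, against 0.42 with it.

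All 8 early sterol enzymes had positive log2 fold changes in GV1001 against vehicle libraries, from 0.24 to 0.56. Hmgcs1 had 519, 492 and 501 CPM in GV1001 libraries, against 313, 506 and 311 CPM in vehicle libraries. The GV1001 values were close together, and vehicle replicate 2 lay among them (0.42 ± 0.18, adjusted p = 0.539). Acat2 had 70.5, 85.0 and 88.3 CPM in GV1001 libraries, against 55.7, 77.0 and 51.3 CPM in vehicle libraries. Here GV1001 replicate 1 lay inside the vehicle range (0.41 ± 0.15, adjusted p = 0.528). Mvd had 24.4, 38.7 and 36.1 CPM in GV1001 libraries, against 28.1, 23.9 and 19.1 CPM in vehicle libraries. GV1001 replicate 1 again lay among the vehicle values (0.49 ± 0.22, adjusted p = 0.548). Fdft1 had 39.1, 25.1 and 30.9 CPM in GV1001 libraries, against 23.1, 26.3 and 20.3 CPM in vehicle libraries. This time replicate 2 was the GV1001 library within the vehicle range (0.45 ± 0.17, adjusted p = 0.531). The other 4 were at 0.24 to 0.56, the highest being Fdps. Mvk, at 20.04 to 22.6 CPM in GV1001 libraries and 16.1 to 19.0 CPM in vehicle libraries, was the 1 early enzyme without overlap.

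Of the late sterol enzymes, Tm7sf2 had the highest log2 fold change of the 36 members. It had 7.94, 9.11 and 10.03 CPM in GV1001 libraries, against 4.44, 7.14 and 4.74 CPM in vehicle libraries. The groups did not overlap (0.74 ± 0.25, adjusted p = 0.528). Nsdhl had 27.4, 37.9 and 39.1 CPM in GV1001 libraries, against 21.5, 29.7 and 20.2 CPM in vehicle libraries. Only GV1001 replicate 1 lay within the vehicle range (0.56 ± 0.20, adjusted p = 0.528). Msmo1 had 194, 188 and 225 CPM in GV1001 libraries, against 141, 198 and 114 CPM in vehicle libraries. Vehicle replicate 2 reached the GV1001 values (0.42 ± 0.17, adjusted p = 0.539). Lss had 17.8, 17.2 and 19.9 CPM in GV1001 libraries, against 17.8, 17.3 and 12.7 CPM in vehicle libraries. Vehicle replicate 3 was low, and the other 2 vehicle libraries were level with GV1001 (0.21 ± 0.17, adjusted p = 0.719). Ebp had 28.0, 41.9 and 31.5 CPM in GV1001 libraries, against 55.9, 39.3 and 42.7 CPM in vehicle libraries. It was again the 1 sterol enzyme with the opposite sign, and its groups overlapped (−0.44 ± 0.18, adjusted p = 0.539). The other 5 were at 0.08 to 0.43, and all overlapped.

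Among the regulators, Insig1 had 32.9, 27.9 and 25.1 CPM in GV1001 libraries, against 19.3, 18.6 and 18.5 CPM in vehicle libraries. Every GV1001 library lay above every vehicle library, at a fold of 1.52 (0.60 ± 0.16). Its unadjusted p of 0.00287 was the smallest of the members, and the adjusted p was 0.528. Srebf2 had 42.5, 75.0 and 68.1 CPM in GV1001 libraries, against 62.9, 44.1 and 33.2 CPM in vehicle libraries. GV1001 replicate 1 was the low one of its group, and the groups overlapped (0.41 ± 0.25, adjusted p = 0.632). Srebf1 had 59.0, 48.4 and 54.8 CPM in GV1001 libraries, against 49.99, 47.0 and 72.5 CPM in vehicle libraries, with overlap (−0.07 ± 0.16). Scap had 62.8, 55.2 and 58.1 CPM in GV1001 libraries, against 61.3, 81.0 and 74.2 CPM in vehicle libraries. GV1001 replicate 1 lay just above vehicle replicate 1 (−0.30 ± 0.13, adjusted p = 0.539). Insig2 had 44.4, 27.3 and 34.6 CPM in GV1001 libraries, against 32.6, 44.7 and 39.6 CPM in vehicle libraries (−0.14 ± 0.19). Stard4 had 57.1, 45.4 and 49.97 CPM in GV1001 libraries, against 40.7, 58.0 and 36.8 CPM in vehicle libraries (0.17 ± 0.17). Both overlapped widely.

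In the fatty acid arm, 3 members did not overlap between GV1001 and vehicle libraries, all of them higher with GV1001. Scd1 had 140.5, 157 and 172.5 CPM in GV1001 libraries, against 132, 116 and 119 CPM in vehicle libraries (0.35 ± 0.11, adjusted p = 0.528). Acly had 199, 195 and 186 CPM in GV1001 libraries, against 160, 178 and 164 CPM in vehicle libraries (0.21 ± 0.09, adjusted p = 0.548). Fads2 had 194, 209 and 198 CPM in GV1001 libraries, against 177, 188 and 167 CPM in vehicle libraries (0.18 ± 0.09, adjusted p = 0.569). These 3 genes serve different steps, the double bond of oleate, the supply of acetyl-CoA and the desaturation of polyunsaturated chains.

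The other fatty acid enzymes overlapped. Fads1 had 178, 164 and 168 CPM in GV1001 libraries, against 126, 170 and 149 CPM in vehicle libraries (0.20 ± 0.11). Fasn had 188, 216 and 230 CPM in GV1001 libraries, against 194, 204.5 and 162 CPM in vehicle libraries (0.18 ± 0.12). In Fads1 GV1001 replicate 1 exceeded the vehicle range, and in Fasn replicates 2 and 3 did. Acss2 had 41.0, 33.3 and 37.2 CPM in GV1001 libraries, against 25.5, 37.0 and 32.2 CPM in vehicle libraries (0.23 ± 0.15). Scd2 had 1318, 1087 and 1188 CPM in GV1001 libraries, against 922, 1198 and 1169 CPM in vehicle libraries (0.13 ± 0.12). Vehicle replicate 1 was the low library in both. Elovl1 had 37.1, 59.1 and 58.9 CPM in GV1001 libraries, against 60.7, 46.6 and 46.9 CPM in vehicle libraries, and its log2 fold change was 0.01 ± 0.19. Elovl6 was at 0.29 ± 0.24 and Elovl5 at 0.05 ± 0.14, while Me1 and Acaca were at −0.12 ± 0.13 and −0.13 ± 0.12.

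By library, the sterol score was −0.20, −0.06 and −0.06 in GV1001 libraries, against −0.38, −0.27 and −0.69 in vehicle libraries. The fatty acid score was 0.01, −0.07 and 0.01 in GV1001 libraries, against −0.28, −0.02 and −0.16 in vehicle libraries. The sterol scores did not overlap, and the fatty acid scores did through vehicle replicate 2. The myelin score was −0.28, −0.28 and −0.14 in GV1001 libraries, against −0.45, −0.19 and −0.27 in vehicle libraries, so that it overlapped. All 9 skeletal muscle markers were higher with GV1001, at a summed 409 to 4347 CPM in GV1001 libraries and 18.5 to 462 CPM in vehicle libraries. All 8 markers of Schwann cells and nerve roots were higher too, at 2285 to 3328 CPM in GV1001 libraries and 469 to 2274 CPM in vehicle libraries. Of the 10 adipocyte markers, 3 had enough counts to be tested, and their defining member Adipoq had at most 9 counts in a library. The adipocyte sum was 27.5 to 52.6 CPM in GV1001 libraries and 7.78 to 23.9 CPM in vehicle libraries. All 11 microglia and macrophage markers were lower with GV1001, at 492 to 2320 CPM in GV1001 libraries and 1016 to 7065 CPM in vehicle libraries. All 9 neuron markers were higher, at 6520 to 7604 CPM in GV1001 libraries and 5386 to 7455 CPM in vehicle libraries. All 5 red blood cell markers were lower, at 397 to 694 CPM in GV1001 libraries and 262, 4789 and 700 CPM in vehicle libraries. That direction rested on vehicle replicate 2, as replicate 1 lay below every GV1001 library. The part of these transcripts in the members' values was not tested.

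GV1001-treated EAE cords were also compared with naive cords, to see how far the treated cord stood from health. Differences of members between these groups were small, and most late sterol enzymes were slightly lower. Negative log2 fold changes were found in 24 of the 36 members, against 49.5% of all genes. They were found in 9 of 10 late sterol enzymes, 5 of 8 early ones and 6 of 12 fatty acid enzymes. The median log2 fold change was −0.08 over the 36 members, against 0.00 over all genes, at −0.02 for early sterol steps, −0.13 for late sterol steps, −0.11 for regulators, −0.05 for fatty acid supply and 0.05 for desaturation and elongation. In edgeR 0 members and 0 genes (0%) passed, the smallest adjusted p of a member being 0.652. At an unadjusted p of 0.05, 1 member was lower, against 2.95% of all genes, and 0 were higher, against 4.35%. DESeq2 called 0 members, with 0.248% of all genes higher and 0.0236% lower, and limma-voom called 0 genes. Absence of a call does not show that the levels were alike.

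The member with that unadjusted p was Lss, which had 17.8, 17.2 and 19.9 CPM in GV1001 libraries, against 24.4, 26.0 and 24.4 CPM in naive libraries. Its groups did not overlap (−0.45 ± 0.16, adjusted p = 0.652). In all, 4 members lay below naive in every GV1001 library (11.1%), against 8.24% of all genes, and 2 lay above (5.56%), against 8.84%. These shares are near those of all genes. The other 3 below were Cyp51, at 122 to 135 CPM in GV1001 libraries and 140 to 162 CPM in naive libraries, Hsd17b7 (−0.16 ± 0.12) and Acss2 (−0.22 ± 0.15). The 2 above were Srebf1 (0.22 ± 0.16) and Fads2 (0.13 ± 0.09). For Insig1 the log2 fold change was −0.05 ± 0.15, for Hmgcs1 −0.20 ± 0.17 and for Scd1 −0.22 ± 0.11. Of the 15 myelin markers, 14 were negative here, with summed levels of 15310 to 16742 CPM in GV1001 libraries and 18541 to 20398 CPM in naive libraries, and all 9 neuron markers were negative, at 6520 to 7604 CPM in GV1001 libraries and 7663 to 8057 CPM in naive libraries. All 8 Schwann cell markers were positive, at 2285 to 3328 CPM in GV1001 libraries and 848 to 1401 CPM in naive libraries, as were all 9 skeletal muscle markers, at 409 to 4347 CPM in GV1001 libraries and 27.9 to 227 CPM in naive libraries. All 11 microglia and macrophage markers were positive too, at 492 to 2320 CPM in GV1001 libraries and 400 to 487 CPM in naive libraries. Their part in the members' values was not tested.

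Of 25 other genes of sterol and fatty acid handling, all had enough counts to be tested and 0 passed edgeR in any of the 3 comparisons. DESeq2 called 3 of them in vehicle against naive libraries. Ch25h and Mylip were higher, against 4.54% of the genes it tested, and Elovl4 was lower, against 1.46%. It called 0 in GV1001 against vehicle. In GV1001 against naive it called 1, Ch25h, higher, against 0.248% of the genes it tested. In vehicle against naive libraries, 15 were negative and 10 positive, with a median of −0.18. In 5 of the 25 every vehicle library lay below every naive library, against 11.7% of all genes, and in 5 every one lay above, against 12%. The 4 with the smallest p are given. Ch25h, whose oxysterol product restrains the processing of SREBPs, had 21.7, 2.25 and 14.1 CPM in vehicle libraries, against 0, 1.57 and 0.925 CPM in naive libraries, where a count of 0 allows up to 0.535 CPM. All vehicle libraries were higher, replicate 2 by little (3.88 ± 0.88, adjusted p = 0.0703 in edgeR and 0.000115 in DESeq2). In GV1001 libraries Ch25h had 4.54, 7.01 and 9.06 CPM, which lay inside the vehicle range and above the naive range (3.02 ± 0.98 against naive, adjusted p = 0.64 in edgeR and 0.0383 in DESeq2). Mylip, a ubiquitin ligase that marks lipoprotein receptors for breakdown, had 29.4, 13.5 and 38.6 CPM in vehicle libraries, against 9.96, 13.2 and 8.88 CPM in naive libraries (1.35 ± 0.34, adjusted p = 0.0777 in edgeR and 0.00528 in DESeq2). Vehicle replicates 1 and 3 stood well above the naive libraries, and in GV1001 libraries Mylip had 13.4, 15.1 and 11.2 CPM. Elovl4, an elongase of very long chains, was at 40.5 to 48.3 CPM in vehicle libraries and 56.1 to 65.2 CPM in naive libraries (−0.49 ± 0.13, adjusted p = 0.0846 in edgeR and 0.0433 in DESeq2). Hacd2, a dehydratase of the elongation cycle, was at 68.2 to 86.2 CPM in vehicle libraries and 52.1 to 59.9 CPM in naive libraries (0.43 ± 0.12, adjusted p = 0.1 in edgeR and 0.0542 in DESeq2).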

How the data were processed

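Whole spinal cord RNA of 9 samples, extracted with TRIzol or a Maxwell RSC kit (which for which sample is not stated), was sequenced as 3′ end libraries, per the labels' protocols. The deposited numbers are unnormalised read counts for each gene symbol, made with FastQC, STAR, HTSeq and build GRCm39, per the submitters' processing notes. Versions, annotation release, strand setting and use of molecular identifiers are not given in the sources used here. The 9 deposited files of single libraries held the same counts as the table of all samples, and 0 columns were unmapped. Groups were taken from the titles and treatment labels.

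The filter filterByExpr (by group, with a minimum count of 10) kept 15351 of 40879 symbols, and TMM was used for scaling. Groups were compared with edgeR 4.0.16 (quasi-likelihood F test, all 9 libraries in 1 fit, R 4.3.3), with Benjamini-Hochberg adjustment over all tested genes and a threshold of 0.05. SEs were derived from the F statistic. Scores used log2 CPM with a prior count of 2. Total counts of 5247246 to 6174870 put 3 counts at 0.486 to 0.572 CPM in a library, a floor that covers counting error only. Alternatives were DESeq2 1.42.0 without the filter, limma-voom (limma 3.58.1), other scaling, no filter, the older quasi-likelihood form, 2 groups only, a replicate block, an adjusted p of 0.1 and leaving out each library. The procedure was also run on simulated data with changes larger than those of any member. That run does not show how well changes of the members' size would be found. Python 3.11.15 with matplotlib 3.10.9 drew the figures.

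Values in every library are given for the 3 members per arm with the smallest p in vehicle against naive, the 2 with the smallest p in GV1001 against vehicle, all regulators, Scd1, Scd2 and members over 0.2 in log2 against the sign of their arm. Of the other pathway genes, the 4 with the smallest p are given. The members and lists were chosen with earlier results of these data known, and 4 pathway genes are not reported here. Promoters of 29 of 36 members came from RefSeq (GRCm38.p6). Gene overlaps came from GENCODE M21, an annotation of an earlier build than that of the counts. In it 3 members overlap another gene on the same strand and 10 on the other. Not all of these are named above, among them Cyp51, which overlaps Akap9 on the other strand.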

Additional observations from a re-analysis of the deposited data

How the results depend on the processing

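For vehicle against naive, edgeR called 3 genes and 0 members. The genes called were 1079 in DESeq2, 20 (19 higher, 1 lower) with library totals only, 0 in limma-voom, 543 with no low-count filter, 862 at an adjusted p of 0.1 and 0 to 1652 when 1 library was left out. The members called were 6 in DESeq2, 1 with no filter, 5 at an adjusted p of 0.1 and 0 to 12 when 1 library was left out, 12 (and 1652 genes) being without vehicle replicate 2 and 1, Scd1, without GV1001 replicate 1. With the replicate number as a block, 0 genes were called in each comparison. Correlations of same-numbered libraries ran from −0.501 to 0.248, over 0.1 in 2 of 9 pairs, so the numbers were not taken to pair samples.

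For GV1001 against vehicle, DESeq2 called 12 genes, and leaving out 1 library gave 0 to 8. For GV1001 against naive, the count was 46 in DESeq2, 5 in a fit of the 2 groups only, 1 each with library totals, with no filter, with the older quasi-likelihood form and at an adjusted p of 0.1, and 0 to 3 when 1 library was left out.

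Leaving out 1 library, the medians in vehicle against naive were −0.68 to −0.33 (early sterol), −0.63 to −0.36 (late sterol), −0.26 to −0.03 (regulators), −0.27 to −0.11 (fatty acid supply) and −0.26 to −0.04 (desaturation and elongation). In GV1001 against vehicle they were 0.29 to 0.51, 0.19 to 0.34, −0.02 to 0.16, 0.08 to 0.24 and 0.09 to 0.21 in the same order, and in GV1001 against naive −0.18 to −0.01, −0.18 to −0.09, −0.15 to −0.06, −0.08 to −0.02 and 0.00 to 0.10. Members without overlap numbered 15 to 23 lower and 1 to 4 higher in vehicle against naive. In GV1001 against vehicle they numbered 0 to 3 lower and 6 to 19 higher. In GV1001 against naive they numbered 5 to 9 lower and 2 to 5 higher. Leaving out a library can only raise such a count or keep it, so these ranges do not test whether it could fall. With library totals, members without overlap in vehicle against naive were 11 lower, against 15 with TMM, and 4 higher. In GV1001 against naive 2 were lower with library totals. The matching shares of all genes were not computed with library totals, so these counts are not results about the members. The shorter element CACCCCAC was in 2 of the 29 members with a promoter entry (6.9%), against 3.3% of the 27025 genes with one. These members were Acat2 and Hmgcs1, and in Hmgcs1 it lay within the match of the longer form.

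The log2 fold change of a member changed sign in 7 of 611 values for vehicle against naive, 12 of 612 for GV1001 against vehicle and 31 of 612 for GV1001 against naive. Elovl1 in GV1001 against vehicle was −0.00 in limma-voom and −0.01 with the replicate block, and in GV1001 against naive Acat2 was 0.00 and Mvk 0.01 with library totals. All other sign changes came from leaving out 1 library. In vehicle against naive, the ranges were −0.89 to 0.16 for Idi1, −0.03 to 0.10 for Me1, −0.06 to 0.15 for Elovl5 and −0.51 to 0.02 for Elovl6. In GV1001 against vehicle, they were −0.10 to 0.30 for Cyp51, −0.20 to 0.15 for Srebf1, −0.33 to 0.02 for Insig2, −0.10 to 0.20 for Elovl1 and −0.07 to 0.15 for Elovl5. In GV1001 against naive, they were −0.09 to 0.06 for Acat2, −0.13 to 0.08 for Mvk, −0.06 to 0.12 for Pmvk, −0.31 to 0.54 for Idi1, −0.09 to 0.24 for Fdps, −0.17 to 0.04 for Sqle, −0.20 to 0.05 for Nsdhl, −0.23 to 0.05 for Dhcr7, −0.17 to 0.06 for Insig1, −0.13 to 0.22 for Insig2, −0.10 to 0.03 for Acly, −0.06 to 0.11 for Acaca, −0.10 to 0.05 for Fasn, −0.07 to 0.17 for Elovl6 and 0.00 to 0.08 for Fads1. Beyond fewer libraries or genes in a fit, the cause was not tested. With 3 libraries a group and 3 to 13 counts of Idi1, that gene was measured with the least precision.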

Other observations

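The libraries of a group did not rank alike in the sterol and fatty acid arms. Among the 18 sterol enzymes, vehicle replicate 3 was the lowest vehicle library for 13 and vehicle replicate 2 the highest for 12. Among the 12 fatty acid enzymes, vehicle replicate 1 was the lowest for 8 and replicate 2 the highest for 10. GV1001 replicate 1 was the lowest GV1001 library for 10 of 18 sterol enzymes and the highest for 8 of 12 fatty acid enzymes. The microglia and macrophage score was 3.47, 1.11 and 2.23 in vehicle replicates 1 to 3 and 0.03, 2.06 and 0.74 in GV1001 replicates 1 to 3. Members of an arm share their libraries, so these counts describe libraries and were not tested.

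The score of the fatty acid arm minus the myelin score was 0.30, 0.21 and 0.15 in GV1001 libraries, 0.17, 0.17 and 0.11 in vehicle libraries and 0.06, −0.05 and −0.02 in naive libraries. Relative to myelin transcripts, the fatty acid enzymes were thus higher in each EAE library than in any naive library, whereas relative to all transcripts they were not. The same difference for the sterol enzymes was 0.08, 0.22 and 0.08 in GV1001 libraries, 0.06, −0.07 and −0.41 in vehicle libraries and 0.03, 0.03 and −0.05 in naive libraries.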
